A study of Mus musculus with 53 samples.

Results

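SOX2 and GATA6 peaks were compared in the same double-positive (DP) cells, and the genes nearest to them were sorted into those reached by SOX2 only, by GATA6 only and by both. The 6 samples used, of 53 in the series, are SOX2 and GATA6 CUT&RUN libraries from 3 sorts labelled A, A1 and B. Of 21938 protein-coding genes of GENCODE M21, 5482 were nearest to at least 1 of the peaks used, and 3185 fell into one of the 3 classes. In CUT&RUN an antibody directs a nuclease to a chromatin protein, and the fragments released mark where that protein sat.

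The cells were SGGC, a reporter line of E14JU mouse embryonic stem cells in which SOX2 is fused to GFP and GATA6 to mCherry at their own loci, with the resistance cassettes left in place. All 6 libraries carry the label of 1 clone, B12. The cells grew in KOSR medium, which is based on KnockOut Serum Replacement, and were sorted for both reporters. The libraries report binding and not expression, so the DP label could not be checked against marker RNA. Nothing in the labels says whether the 3 sorts came from separate cultures, so each p-value measures only the spread between these samples.

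SOX2 is an HMG-box transcription factor that works with OCT4 in pluripotent cells and in the epiblast. GATA6 is a zinc finger factor that binds GATA sequences and is required for the primitive endoderm (PrE), the extra-embryonic layer that lines the blastocyst cavity. Cells of the inner cell mass hold both proteins before the epiblast and the PrE separate. FGF4 from epiblast precursors, acting through FGF receptors and ERK, favours the PrE, while NANOG opposes GATA6.

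Within each sort the longer list was cut to the length of the shorter one by the max signal of the peaks. This left 4859 peaks of each factor in sort A, 3821 in A1 and 1378 in B, with nearly all of both lists kept in B. GATA6 had 8316 peaks in the full A list and SOX2 had 5320 in the full A1 list. The GATA6 library of sort A is named with the suffix sub02, which no source read here explains.

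Windows of 200 bp around peak maxima show what the sites look like. Each is reference sequence of the GRCm38 plus strand, from the RefSeq assembly, at the strongest A1 peak assigned to the gene, and the genes were chosen after their values were seen. Capitals mark the GATA string, which is AGATAA or TGATAA, or the SOX string, which is CATTGT or CTTTGT, on either strand. The Fgf4 peak lies in the 3′ UTR of Fgf4 and is shown by 30 bases. In GENCODE M21 the Sox2 window lies in no gene, the Gata4 window in an intron of Gata4, the Otx2 window in an intron of the non-coding Otx2os1 and the Pdgfra window in an exon of the non-coding Gm19583.
Fgf4, SOX2 peak, chr7:144864382-144864411: ctttagaaaactCTTTGTttggatgctaat
Sox2, SOX2 peak, chr3:34757975-34758174: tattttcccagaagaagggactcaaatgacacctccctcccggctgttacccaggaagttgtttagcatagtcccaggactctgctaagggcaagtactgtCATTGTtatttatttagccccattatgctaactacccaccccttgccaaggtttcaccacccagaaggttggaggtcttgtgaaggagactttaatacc
Gata4, GATA6 peak, chr14:63231236-63231435: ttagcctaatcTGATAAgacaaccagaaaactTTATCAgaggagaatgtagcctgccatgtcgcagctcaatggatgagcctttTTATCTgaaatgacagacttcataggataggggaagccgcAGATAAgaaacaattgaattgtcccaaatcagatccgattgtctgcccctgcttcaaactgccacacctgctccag
Otx2, GATA6 peak, chr14:48701553-48701752: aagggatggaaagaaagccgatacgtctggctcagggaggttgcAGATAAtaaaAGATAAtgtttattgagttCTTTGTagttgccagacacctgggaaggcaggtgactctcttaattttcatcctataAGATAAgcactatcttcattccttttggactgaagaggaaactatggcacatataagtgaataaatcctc
Pdgfra, GATA6 peak, chr5:75146584-75146783: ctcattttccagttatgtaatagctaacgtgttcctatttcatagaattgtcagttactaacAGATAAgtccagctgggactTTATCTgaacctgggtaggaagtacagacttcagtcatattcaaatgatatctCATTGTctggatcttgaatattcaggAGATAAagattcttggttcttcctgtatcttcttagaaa
Both SOX2 windows hold 1 SOX string and no GATA string. The Gata4 window holds 4 GATA strings and no SOX string, and the Otx2 and Pdgfra windows hold 3 GATA strings and 1 SOX string each. Of the 5 peaks, only the one at Pdgfra overlapped a peak of the other factor in the same sort.

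SOX2 peaks lay farther from gene starts than GATA6 peaks in every sort. The median distance from a SOX2 maximum to the nearest protein-coding transcript start was 27.9 kb in A, 28.0 kb in A1 and 29.2 kb in B. For GATA6 it was 22.05 kb, 23.2 kb and 23.7 kb in the same order. The lowest SOX2 value was above the highest GATA6 value, and within a sort the SOX2 median was 1.27, 1.21 and 1.23 times the GATA6 median. The mean difference was 5.41 ± 0.516 kb (SD, n = 3 pairs). On the log10 scale it was 0.0919, and 0.0532 when each gene was given 1 start, its 5′ end. The exact sign-flip test on the log10 medians gave p = 0.25 (two-sided), the smallest that 3 pairs allow, and 0.333 after Benjamini-Hochberg adjustment. The same adjustment applies to each exact p of 0.25 among the 8 measures tested, while an exact p of 0.5 stayed at 0.5.

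SOX2 also had more of its peaks in the farthest range. Peaks more than 50 kb from any start made up 36.5%, 35.8% and 37.2% of SOX2 peaks in A, A1 and B, against 30.7%, 32.1% and 34.3% of GATA6 peaks. That difference was 4.13 ± 1.56 percentage points (SD, n = 3 pairs, exact sign-flip p = 0.25), and 2.72 points with 1 start per gene. Beyond 100 kb the shares were 22.6%, 21.8% and 22.9% for SOX2 and 16.4%, 16.99% and 17.8% for GATA6. Promoter-proximal peaks, within 1 kb of a start, were few for both factors. They were 6.69%, 5.63% and 4.57% of SOX2 peaks and 6.17%, 5.05% and 5.01% of GATA6 peaks, higher for SOX2 in A and A1 and lower in B (exact sign-flip p = 0.5).

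**Figure D1:**
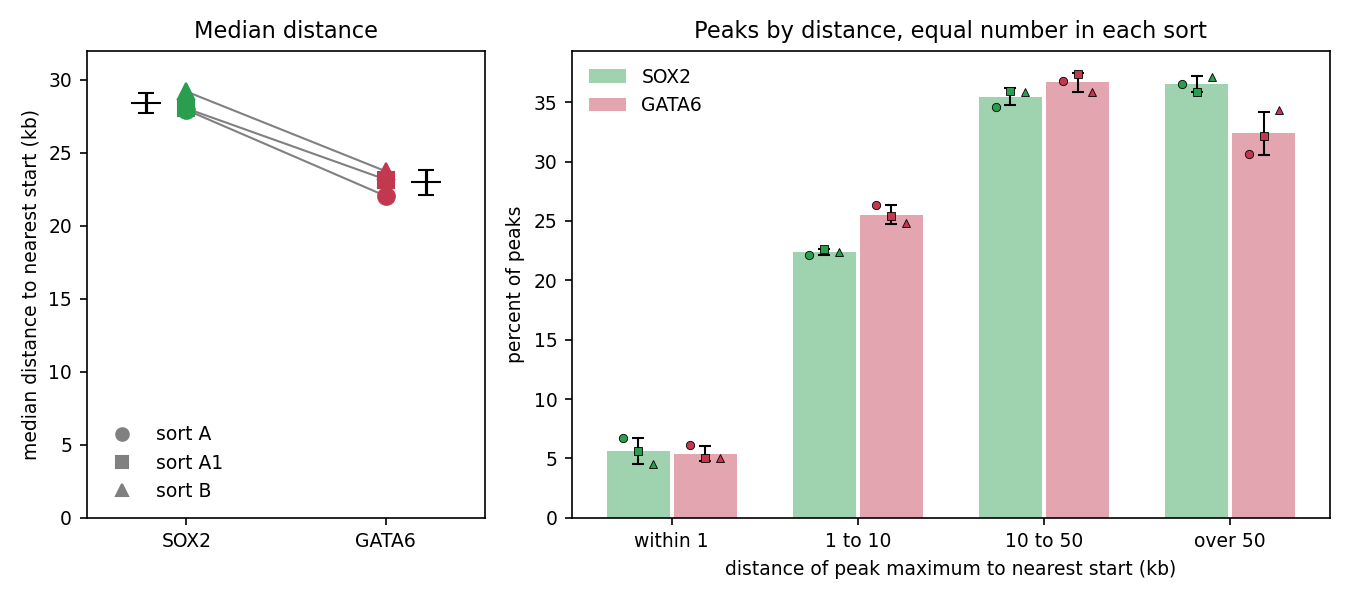
Left, median distance in kb from peak maximum to the nearest protein-coding start for SOX2 and GATA6 in DP cells, 1 line per sort, with mean ± SD of the 3 sorts in black. Right, percent of peaks in 4 distance ranges (bars, mean; error bars, SD; points, sorts); the SOX2 points lie above the GATA6 points over 50 kb and below them from 1 to 10 kb.

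GATA6 sat inside genes more often. Peak maxima within a protein-coding gene made up 45.9%, 44.2% and 41.5% of GATA6 peaks and 37.4%, 37.9% and 34.7% of SOX2 peaks. The difference, SOX2 minus GATA6, was -7.22 ± 1.14 percentage points (SD, n = 3 pairs, exact sign-flip p = 0.25). At equal peak number SOX2 reached 3231, 2607 and 1147 genes and GATA6 3308, 2661 and 1107. The difference was -30.3 ± 62.0 genes (SD, n = 3 pairs, exact sign-flip p = 0.5), higher for GATA6 in A and A1 and lower in B, and it was -7 without A and -304 with all peaks of each list. Most genes had a single peak, 71.0% to 85.8% of those reached by SOX2 and 71.6% to 83.8% of those reached by GATA6.

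The sequence at the maxima separated the factors in each sort. A GATA string stood in 91.8%, 88.6% and 86.5% of GATA6 windows and in 38.8%, 39.3% and 27.3% of SOX2 windows (exact sign-flip p = 0.25). A SOX string stood in 65.3%, 69.4% and 73.8% of SOX2 windows and in 39.1%, 42.1% and 40.3% of GATA6 windows (exact sign-flip p = 0.25). In windows of 200 bp around all 54327 protein-coding transcript starts the strings were found in 9.02% and 16.1%. Windows 5 kb to either side of the peaks held the GATA string in 20.7% to 22.5% of cases and the SOX string in 26.3% to 28.96%. The composite OCT-SOX string (TTGT, any base, then ATGCAA, on either strand) was rare, at 0.864%, 0.785% and 1.60% of SOX2 windows and 0.185%, 0.157% and 0.0726% of GATA6 windows, and was found in 0.0681% of start windows. It can overlap the SOX string.

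The strings also differed between shared and own sites of a factor. SOX2 peaks that overlapped a GATA6 peak of the same sort held a GATA string in 76.7%, 76.6% and 70.2% of cases. SOX2 peaks at sites of their own held one in 26.1%, 25.5% and 22.005%, near the level 5 kb away. GATA6 peaks that overlapped SOX2 held a SOX string in 57.5%, 60.9% and 56.8%, against 33.0%, 35.1% and 38.2% at their own sites. Overlapping peaks share DNA, so a higher share of the other factor's string is built into the selection and nothing is read from it. Own SOX2 sites had the OCT-SOX string in 1.02%, 0.896% and 1.79% of windows, and shared ones in 0.411%, 0.484% and 0%. Overlap covered 25.05% of the peaks of each factor in A, 27.01% of SOX2 and 27.2% of GATA6 peaks in A1, and 10.96% and 11.2% in B.

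**Figure D2:**
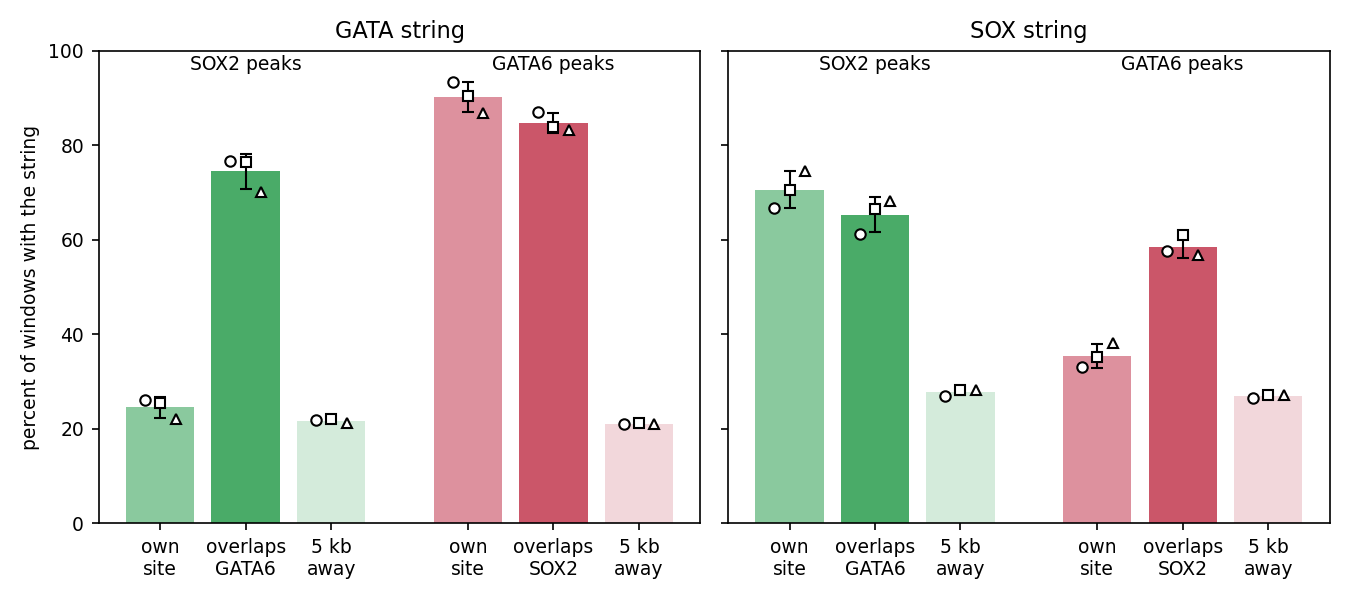
Percent of 200 bp windows with the GATA string (left) or the SOX string (right) for SOX2 and GATA6 peaks of DP cells, at sites without a peak of the other factor, at sites that overlap one, and 5 kb to the sides. Bars are means, error bars SD, and points the 3 sorts. The GATA string in SOX2 peaks is near its level 5 kb away except where GATA6 also has a peak, and overlapping peaks share DNA.

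At the level of genes, 1092 were reached by SOX2 only in at least 2 sorts (4.98% of all protein-coding genes). Another 1080 were reached by GATA6 only (4.92%) and 1013 by both (4.62%). In all 3 sorts the class held for 408, 266 and 294 of these genes. A further 2297 genes were reached without the same class in 2 sorts, and 16456 were not reached. Sort by sort, both factors reached 1576, 1249 and 320 genes. That is 48.8%, 47.9% and 27.9% of the SOX2 genes and 47.6%, 46.9% and 28.9% of the GATA6 genes, so the shortest lists, those of B, gave the lowest shares. With every list cut to the 1378 peaks of the shortest, the classes held 692, 699 and 326 genes. They held 511, 400 and 299 without sort A, 492, 325 and 308 without A1 and 905, 887 and 994 without B. Each time both remaining sorts had to give the class, and these included B, with the shortest lists, except where B was left out. A gene without a peak in a list of this length may still be bound, and read depth is unknown.

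**Figure D3:**
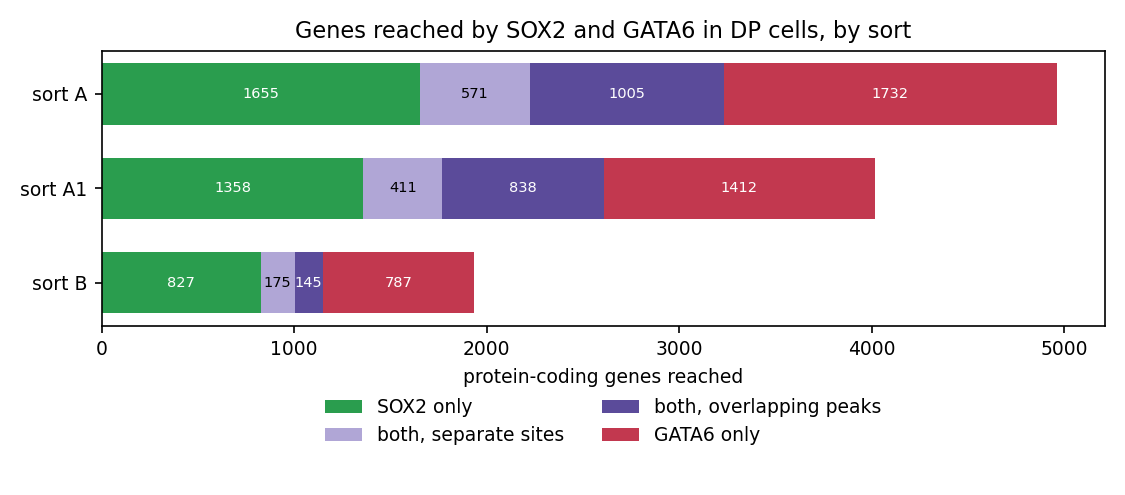
Number of protein-coding genes reached in sorts A, A1 and B by SOX2 only, by GATA6 only, and by both, the last split by whether peaks of the 2 factors overlap at the gene. Genes with overlapping peaks numbered 1005, 838 and 145.

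The genes reached were compared between libraries by the Jaccard index, the genes reached in both libraries as a share of those reached in either. With each list cut to 1378 peaks, the index for 1 factor in 2 sorts ran from 52.1% to 66.7%. For SOX2 against GATA6 it was 16.5% to 19.4% within a sort and 14.4% to 19.4% between sorts. At the peak numbers used elsewhere, which differ between sorts, the ranges met, at 30.3% to 62.0% for 1 factor and 16.5% to 31.8% for the 2 factors within a sort.

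Genes reached by both factors held more of the genome. The territory of a gene, the span in which its starts are the nearest, had a median of 198 kb for genes of both, 101 kb for SOX2 only, 105 kb for GATA6 only and 46.2 kb for all protein-coding genes. Among the 5485 genes with the widest territories, from 110 kb up, 12.2% were reached by both, 9.50% by SOX2 only and 9.41% by GATA6 only. Among the 5485 with the narrowest, these shares were 0.565%, 1.79% and 1.39%. The part of territory width in the classes was not tested.

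The peaks at these genes differed in distance as well. GATA6 peaks at GATA6-only genes were closest, with medians of 17.5, 18.6 and 19.1 kb in A, A1 and B, and SOX2 peaks at SOX2-only genes lay at 24.5, 24.1 and 26.7 kb. At genes of both, GATA6 peaks lay at 32.8, 32.9 and 29.96 kb and SOX2 peaks at 37.4, 36.04 and 33.8 kb. The ranges of the 4 groups of peaks did not overlap, and at genes of both GATA6 was again the nearer factor. A territory limits how far an assigned peak can lie, and territories were widest at genes of both. Their part in these distances was not tested. SOX2 peaks at SOX2-only genes held a GATA string in 22.7%, 23.04% and 17.7% of windows, and those at genes of both in 49.4%, 51.5% and 37.6%. Of the SOX2 peaks at genes of both, 44.7%, 47.9% and 22.3% overlapped a GATA6 peak and so share DNA with it.

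A gene of both was not always reached at 1 shared site. Of the 1013 genes, 656 (64.8%) had overlapping SOX2 and GATA6 peaks in at least 2 sorts, 126 in 1 sort and 231 in no sort. The share with a shared site was 72.6% in A, 69.7% in A1 and 45.7% in B, and the 64.8% became 45.2% without A and 45.1% without A1. At genes without one, the nearest SOX2 and GATA6 maxima were a median of 25.2 kb, 25.9 kb and 51.9 kb apart.

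Of 19 pluripotency regulators, 11 had a class, with 8 reached by both (42.1%, against 4.62% of all genes), 2 by SOX2 only and 1 by GATA6 only. Without A 9 had a class, and without A1 10. The median territory of the list was 173 kb, and 12 of its genes were among the 5485 with the widest. Both factors reached Sox2, Klf4, Klf5, Esrrb, Tbx3, Nr5a2, Sall4 and Jarid2. Klf5 became GATA6 only with every list cut to the shortest and with the stronger 50% of peaks, and Nr5a2 with peaks within 100 kb. Esrrb, an orphan nuclear receptor of naive pluripotency, had its strongest GATA6 peak at 10.7 kb in all 3 sorts, at percentiles 99.4, 99.5 and 99.5 of peak strength in the library. The strongest SOX2 peaks at Esrrb were at percentiles 60.4, 65.3 and 16.2. Tbx3, a T-box factor also used by the PrE, had 7, 7 and 4 SOX2 peaks and 6 in each GATA6 library, with GATA6 percentiles of 99.7, 99 and 98.5. Sall4, a zinc finger factor of both inner cell mass lineages, had its strongest peaks of both factors 2.43 to 2.46 kb downstream of a start, in all 6 libraries.

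The Sox2 gene (ENSMUSG00000074637, GRCm38 chromosome 3, 34650405 to 34652461, plus strand) was reached by both factors in all 3 sorts. It had 6, 5 and 2 SOX2 peaks and 3, 3 and 2 GATA6 peaks in A, A1 and B. The strongest SOX2 peak was 3.69 kb downstream of the start in A and 108 kb downstream in A1 and B, and the strongest GATA6 peak was at 32.9 kb in A and at 94.9 kb in A1 and B. Overlapping peaks of the 2 factors were present in each sort.

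Nanog (ENSMUSG00000012396, chromosome 6, 122707489 to 122714633, plus strand) was a SOX2-only gene, in A and B. SOX2 had 2, 2 and 1 peaks there, the strongest at -4.41 kb in A and -4.83 kb in B, where a minus sign means upstream. In A1, GATA6 had 1 peak, 4.06 kb downstream, at percentile 29.8, and in A and B none at the equal number. With all peaks of each list, or ranked by total signal, Nanog moved to the genes of both. Klf2, a Krüppel-like factor of naive pluripotency, was SOX2 only in all 3 sorts, with SOX2 percentiles of 94.5, 91.1 and 88.7 and peaks at -2.80 to -2.84 kb. Tet1, a 5-methylcytosine dioxygenase, was GATA6 only in all 3 sorts, with percentiles of 91.3, 82.5 and 76.0 and a peak 1.74 to 1.76 kb downstream of a start. Pou5f1, which encodes OCT4, had no class. Its SOX2 peaks numbered 2, 1 and 0, and its GATA6 peaks 0, 3 and 0.

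Of 12 PrE transcription factors 5 had a class (41.7%, against 14.5% of all protein-coding genes), Gata6 and Foxq1 with both, Gata4 and Gsc with GATA6 only and Eomes with SOX2 only. The list had a median territory of 154 kb, and 2 of its genes had a class without A and 1 without A1. At the shortest list Gata6 and Foxq1 became GATA6 only, and Eomes had no class without B. Gata6 had 6, 3 and 1 GATA6 peaks and 2, 2 and 0 SOX2 peaks, and in A and A1 peaks of the 2 factors overlapped. The strongest SOX2 peak lay at -47.7 kb and -47.8 kb in A and A1, and the GATA6 peak of B was also at -47.8 kb. Gata4 (ENSMUSG00000021944, chromosome 14, 63198922 to 63271692, minus strand), a partner of GATA6 in PrE, had 2, 3 and 0 GATA6 peaks and no SOX2 peak. Its strongest peak in A1 lay 13.9 kb downstream of a start that is not the 5′ end of the gene. With 1 start per gene, its 5′ end, Gata4 had no class. Gsc, a homeobox factor of anterior mesendoderm, had a single GATA6 peak at -19.1 kb in each sort, at percentiles 99.5, 96.5 and 97.4. Sox17, an endoderm HMG-box factor, had no class. GATA6 reached it in A and A1 at percentiles 96.5 and 92.5, and SOX2 in A alone at percentile 18.9.

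Of the receptors, adaptors and matrix proteins of the PrE, 15 of 20 had a class (75%, against 14.5% of all genes, median territory 109 kb). Both factors reached 10, namely Pdgfra, Dab2, Cubn, Lrp2, Lamc1, Col4a1, Col4a2, Sparc, Fn1 and Fst. SOX2 alone reached Lama1, Nid1 and Hspg2, and GATA6 alone Nid2 and Ttr. Without A, without A1 or with the class in all 3 sorts, 7 of 20 had a class and 5 were genes of both, a lower share than that of the pluripotency regulators. Col4a2 became SOX2 only with the stronger 50% of peaks and GATA6 only without sites bound in every culture, which are peaks found in all SOX2 and GATA6 lists of the other cultures. Sparc became GATA6 only at the shortest list, and Fst SOX2 only with peaks within 100 kb. Pdgfra (ENSMUSG00000029231, chromosome 5, 75152292 to 75198215, plus strand), the PDGF receptor that marks the PrE, had 8, 6 and 5 GATA6 peaks and 5, 4 and 0 SOX2 peaks. Its strongest GATA6 peak was at -5.56 to -5.61 kb, at percentiles 95.7, 98.4 and 71.2. The strongest SOX2 peak in A lay within the same stretch, at -5.59 kb, at percentile 85.6. Lamc1, the laminin gamma-1 chain of basement membrane, had GATA6 percentiles of 99.3, 98.9 and 97.8 at 11.8 kb and SOX2 percentiles of 97.7, 98.2 and 75.4 at -43.9 kb. The strongest sites thus differed, but other peaks of the 2 factors overlapped at Lamc1 in all 3 sorts. The paired nidogens parted, with Nid1 SOX2 only and Nid2 GATA6 only, each in all 3 sorts.

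The FGF and ERK pathway had 11 of 21 genes in a class (52.4%, against 14.5% of all genes, median territory 108 kb), with the ligand and the receptors in different ones. Fgf4 (ENSMUSG00000050917, chromosome 7, 144847367 to 144865243, plus strand), the ligand from the epiblast lineage, was SOX2 only, with 1 peak in A, 2.99 kb downstream of a start and in the 3′ UTR, 1 in A1 at the same place, none in B, and no GATA6 peak. Fgfr1 and Fgfr3 were GATA6 only and Fgfr2 was reached by both. Fgfr3 had 1 GATA6 peak in each sort, at -1.21 to -1.22 kb, at percentiles 83.8, 82.5 and 71.2, and no SOX2 peak. At Fgfr2, 5, 6 and 3 GATA6 peaks stood against 1, 1 and 0 SOX2 peaks, with GATA6 percentiles of 98.9, 98.4 and 94.1 and SOX2 percentiles of 72.5 and 2.40. Fgfr1 became a gene of both with all peaks or the total signal, and had 1 SOX2 peak in A, at -51.0 kb. Fgfr2 became GATA6 only at the shortest list, with the stronger 50% of peaks and with peaks within 100 kb. In all, 4 genes of the list had a class without A and 3 without A1. The genes of both in the list numbered 1 instead of 6 without A, without A1 or with the class in all 3 sorts, and the SOX2-only genes 0 instead of 2. Downstream, the adaptor Frs2, the ERK phosphatases Dusp4 and Dusp6, the feedback inhibitor Spry2 and the ETS factor Etv5 were genes of both, while Etv4 was SOX2 only and the kinase Braf GATA6 only. Frs2 became GATA6 only at the shortest list and with the stronger 50% of peaks, and Dusp4 with the latter. Etv5 became SOX2 only at the shortest list and without sites bound in every culture.

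In other signalling pathways the share in a class was 46.7% for Nodal and Activin, 36.8% for WNT, 50% for Hippo, 27.3% for LIF and STAT3 and 20% for BMP, against 14.5% of all genes. The median territory of the WNT list was 155 kb, of Hippo 101 kb, of LIF and STAT3 107 kb and of BMP 191 kb, all wider than the 46.2 kb of all genes. Without A1 no gene of the Nodal, WNT or BMP lists had a class, and without A the counts were 2, 2 and 0. Hippo had 4 without A and 4 without A1, and without B the GATA6-only genes of the Nodal and of the WNT list numbered 1 instead of 3. In the Nodal and Activin pathway 7 of 15 genes had one (median territory 45.03 kb). The co-receptor Tdgf1, the ligand Gdf3 and the receptor Acvr2a were SOX2 only, and the SMAD genes Smad3 and Smad7 and the SMAD repressor Skil were GATA6 only, with Smad2 at both, or GATA6 only at the shortest list. SOX2 also had 1 peak in A at Smad3, at 8.97 kb and percentile 42.2, and 1 at Skil, at 4.73 kb and percentile 18.9, each overlapping a GATA6 peak. In the WNT pathway 7 of 19 had a class. Gsk3b and Lef1 were SOX2 only, Fzd5, Axin2 and Tcf7 GATA6 only, and Tcf7l2 and the secreted inhibitor Dkk1 genes of both. Dkk1 became GATA6 only at the shortest list and with the stronger 50% of peaks, and Tcf7l2 SOX2 only with peaks within 100 kb. Axin2 had GATA6 percentiles of 99.4, 98.9 and 98.0 at -9.27 to -9.30 kb, and in A also 2 SOX2 peaks, the stronger at -9.31 kb and percentile 18.9. Tcf7 had 1 SOX2 peak in A, at percentile 76.9. In the Hippo pathway 7 of 14 had a class, with Wwtr1, Tead1, Ccn2 and Fat1 at both, Amotl2 and Ccn1 SOX2 only and Nf2 GATA6 only. Wwtr1 became SOX2 only at the shortest list, and Ccn2 without sites bound in every culture. In the LIF and STAT3 pathway 3 of 11 had one, the receptor chains Lifr and Il6st with both and the kinase Pim1 with GATA6 only, though SOX2 had 1 peak there in A1, at percentile 20.5. Of 15 BMP pathway genes, Id3 and Bambi were reached by both and Smad5 by GATA6 only. Il6st became GATA6 only without sites bound in every culture, and Bambi SOX2 only with peaks within 100 kb.

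Formative and primed epiblast genes had a class in 5 of 14 cases (35.7%, against 14.5% of all genes), and in 3 without A or without A1. Foxd3 was SOX2 only in all 3 sorts, at percentiles 91.4, 72.0 and 85.9. Otx2 (ENSMUSG00000021848, chromosome 14, 48657677 to 48673819, minus strand), a homeobox factor of the post-implantation epiblast, was GATA6 only, with 1 peak at -27.8 kb in A and in A1, at percentiles 21.5 and 36.7. Pou3f1, a POU factor of the same stage, was GATA6 only in all 3 sorts, at percentiles 91.3, 86.9 and 22.7, and Dnmt3a and Cdh2 were genes of both, Dnmt3a becoming GATA6 only with 1 start per gene, its 5′ end. Within the GATA family and cofactors, Gata2, Gata4 and Zfpm1 were GATA6 only and Gata6 was reached by both (4 of 8, 50%), and without A or without A1 no gene of this list had a class. Within the SOX family of 19, Sox2, Sox9 and Sox13 were genes of both, Sox5 SOX2 only and Sox11 GATA6 only (26.3% in a class), and 2 had a class without A and 3 without A1. Sox9 became SOX2 only at the shortest list, with the stronger 50% of peaks and with peaks within 100 kb, and Sox13 with 1 start per gene.

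Lists for other cell types gave 5 of 14 trophoblast genes in a class (35.7%), 2 of 12 fibroblast genes (16.7%) and 4 of 16 neural transcription factors (25%), and 1 of 16 housekeeping genes, Actb (6.25%), against 14.5% of all genes. The trophoblast genes were Eomes and Tfap2c with SOX2 only, Gata2 and Plet1 with GATA6 only and Krt8 with both. The fibroblast genes were Col1a2, SOX2 only, and Prrx1, GATA6 only. The counts without A and without A1 were 2 and 1 for trophoblast, 1 and 1 for fibroblast, 2 and 2 for neural and 0 and 0 for housekeeping genes. The neural genes were Pax3, SOX2 only, and Pax7, Hes5 and Irx3, GATA6 only. The median territory was 101 kb for trophoblast, 188 kb for fibroblast, 152 kb for neural and 28.9 kb for housekeeping genes, against 46.2 kb for all genes, so the 14.5% is not taken over genes of like width.

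**Figure D4:**
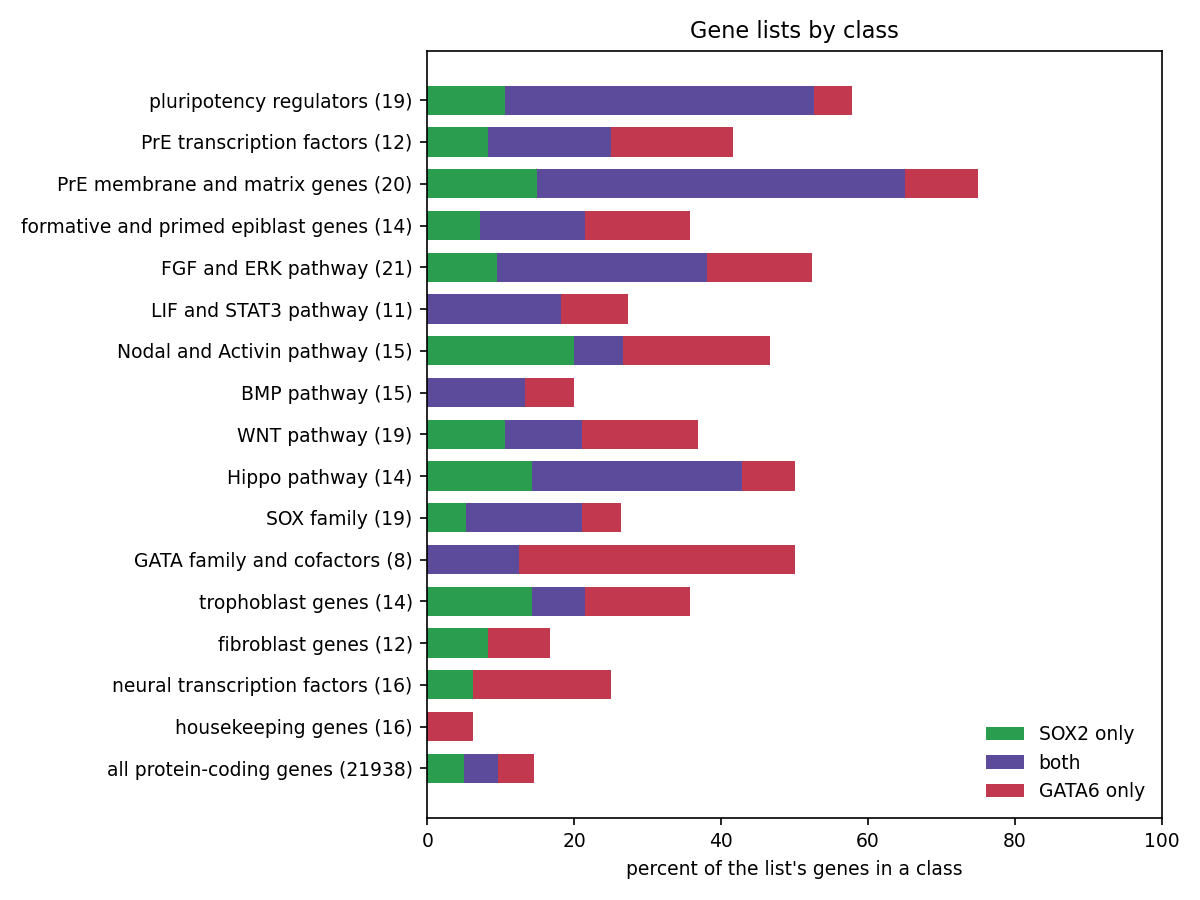
Percent of the genes of 16 lists, and of all protein-coding genes, in the classes SOX2 only, both and GATA6 only (number of genes in brackets). The share in a class is 75% for PrE membrane and matrix genes, 57.9% for pluripotency regulators and 6.25% for housekeeping genes, and without A or without A1 the order of the former pair is reversed.

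The 8 strongest genes of each class, by peak percentile among those with the class in all 3 sorts, were outside these lists except for Gsc, Jarid2 and Sall4. For SOX2 only they were Brd1, Gxylt1, Zfp804a, Gm28710, N4bp1, Ahr, Trdn and Nup205, with mean percentiles of 98.0 to 99.9. Brd1, a bromodomain protein, had 1 SOX2 peak 21.7 kb, 21.8 kb and 21.7 kb downstream of a start. For GATA6 only they were Plekha1, Gsc, Gfpt2, Anp32b, Kdm6b, Rgs3, Sh3bp5 and Pprc1, with mean percentiles of 96.5 to 98.1. Kdm6b, an H3K27 demethylase, had 2 GATA6 peaks in each sort, the strongest at -23.8 kb. For both they were Calcoco2, Cd83, 1700024P04Rik, Gm6993, Jarid2, Sall4, Diaph2 and Cct8l1. Peaks found in all factor lists of the other cultures were nearest to Calcoco2, 1700024P04Rik, Jarid2, Sall4 and Cct8l1 in all 6 DP libraries. Such peaks were nearest to Cd83 in 3 of these libraries and to N4bp1 in 4. Jarid2, a component of Polycomb complexes, was among the 5 genes with most peaks for each factor, with 12, 11 and 5 SOX2 peaks and 13, 7 and 2 GATA6 peaks over a territory of 664 kb. The other genes with most SOX2 peaks were Cntnap5b, Klf6, Tex14 and 1810013L24Rik, and with most GATA6 peaks Zfp982, Etl4, Magi1 and Pdgfra.

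Peak lists of the other cultures were not used to form the classes. They come from the SOX2+ cells of the same KOSR sorts, from 2iLIF (naive embryonic stem cells in MEK and GSK3 inhibitors with LIF), from NACL (a medium with Activin, CHIR99021 and LIF) and from nEnd (naive extra-embryonic endoderm). In SOX2+ cells of A, A1 and B, SOX2 peaks were nearest to 98.8%, 99.5% and 97.8% of the SOX2-only genes, and to 93.4%, 94.6% and 86.6% of the genes of both. They were nearest to 51.8%, 59.4% and 35.5% of the GATA6-only genes, against 33.7%, 38.8% and 25.3% of all genes. The same order held in 2iLIF (93.8%, 87.0% and 43.1% in clone B9, 90.6%, 81.0% and 28.9% in B12, for SOX2 only, both and GATA6 only) and in NACL (98.1%, 95.4% and 68.1% in B9, 97.5%, 91.8% and 52.7% in B12), where the shares of all genes were 28.7% and 21.2% in 2iLIF and 45.4% and 33.4% in NACL. GATA6 peaks of nEnd were nearest to 83.2% and 91.7% of the GATA6-only genes in B9 and B12, to 91.6% and 94.6% of the genes of both and to 62.2% and 72.6% of the SOX2-only genes, against 39.7% and 44.7% of all genes. These libraries differ in peak number, and classes differ in territory, so the shares are given without a test.

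**Figure D5:**
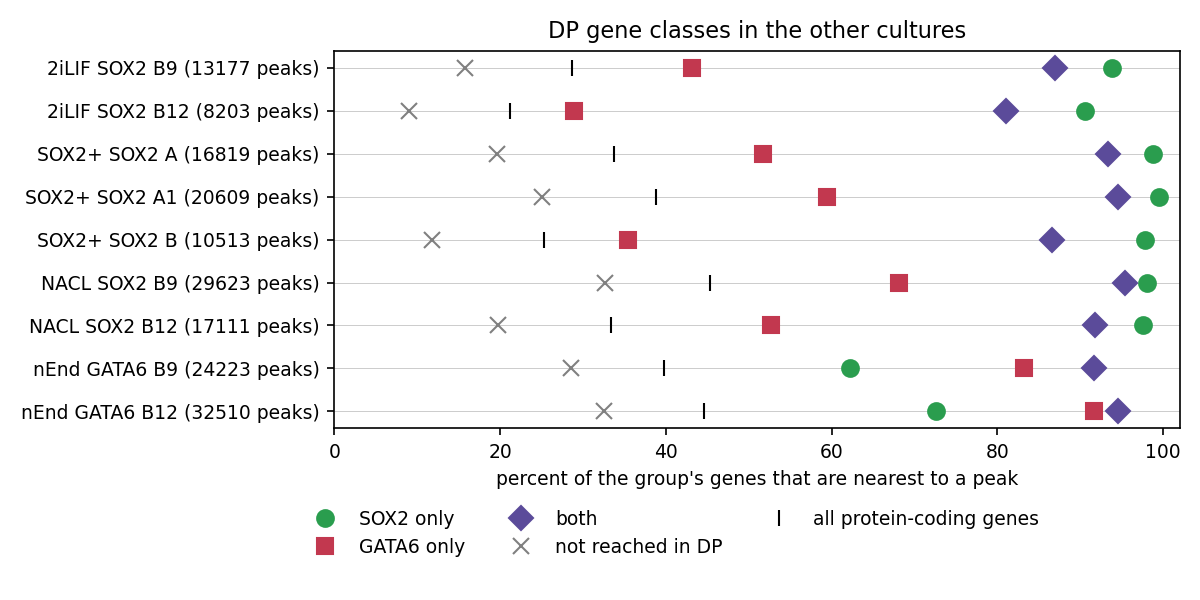
Percent of the genes of each DP class, of genes not reached in DP and of all protein-coding genes that are nearest to a peak in each SOX2 or GATA6 library of the other cultures. SOX2-only genes lead in the 7 SOX2 libraries and GATA6-only genes lie above SOX2-only genes in the 2 nEnd GATA6 libraries.

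Histone marks were counted by a peak within 1 kb of a start, not by the nearest gene, so their shares are not set against those of the factors. In the single DP library of H3K27ac, a mark of active promoters and enhancers, a peak lay within 1 kb of a start at 53.6% of SOX2-only genes, 55.2% of GATA6-only genes and 64.1% of genes of both, against 39.7% of all genes. In SOX2+ cells of sorts A and B the shares were 32.5% and 31.6% for SOX2 only and 26.2% and 24.3% for GATA6 only, against 20.2% and 18.5% of all genes. In nEnd they were 47.9% and 49.2% for SOX2 only and 54.8% and 54.7% for GATA6 only in B9 and B12, against 41.6% and 40.7% of all genes. For H3K27ac, SOX2-only genes were the higher in SOX2+ cells and GATA6-only genes in nEnd, in both libraries of each. H3K4me1, a mark of enhancers, had the same order in sort A of SOX2+ cells, with 58.8% of SOX2-only, 57.5% of GATA6-only and 42.3% of all genes. In sort B the order turned, with 63.6%, 65.2% and 48.3%. In DP cells its shares were 78.6% and 85.1%, against 66.2% of all genes. In the nEnd libraries of clone B9 they were 39.6% and 46.4%, against 31.3%, in one and 16.03% and 21.5%, against 10.6%, in the other. In 2iLIF the H3K4me1 shares were 19.7% and 18.9% in B9 and 45.1% and 43.5% in B12, for SOX2-only and GATA6-only genes, against 11.7% and 29.7% of all genes. In NACL the order was the other way, with 20.3% and 24.2% in B9 and 19.6% and 20.6% in B12, against 14.4% and 12.6%. H3K27ac was at more SOX2-only than GATA6-only genes in both media, with 76.8% and 70.9% in B9 and 83.2% and 77.9% in B12 of 2iLIF, and 79.2% and 71.8% and 81.7% and 77.9% in NACL, against 59.2% to 66.3% of all genes. Genes of both had the highest share of the 3 classes in all 18 mark libraries used.

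Some DP peaks stood at sites found in every factor list. Of the full lists, 556 of 4859, 589 of 5320 and 320 of 1378 SOX2 peaks and 326 of 8316, 222 of 3821 and 87 of 1391 GATA6 peaks overlapped a peak in all 9 SOX2 and GATA6 lists of the other cultures. The genes nearest to them included 289 of the 1013 genes of both, 182 of the 1092 SOX2-only genes, 7 of the 1080 GATA6-only genes and 85 genes of no class. Of the 9 lists 7 are of SOX2 and 2 of GATA6, so the filter itself favours SOX2 sites and nothing is read from the difference between these counts. Without these peaks the classes held 1046, 1044 and 854 genes (SOX2 only, GATA6 only and both), the distance and string differences kept their direction, and the share within 1 kb of a start turned lower for SOX2.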

How the data were processed

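The deposited peak lists give for each peak its position on mm10 (GRCm38) and its total and max signal, a whole-number coverage whose scale differs between libraries. Per the labels and methods, the authors used cutadapt 1.18 for trimming, Bowtie2 2.3.4.1 for alignment, then SAMtools 1.9, Picard 2.9.1, bedtools 2.27.1 and deepTools 3.2.0, and SEACR with an IgG control for each library's peaks. File names give SEACR's stringent mode for the factors, while the methods give the opposite. The antibodies came from Active Motif (SOX2) and Cell Signaling (GATA6). Peaks were ranked by signal within their own library. Read depth is unknown, so a library's peak count sets how many genes it can show.

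Each peak maximum on chromosomes 1 to 19, X and Y was assigned to the gene of the nearest protein-coding transcript start (GENCODE M21). Ties in max signal at the cut were ordered by total signal, and 168 of the 681 GATA6 peaks of A at that value were used. Percentile is the rank of a gene's strongest peak among the peaks used, with 0 for none, and mean percentiles are over the 3 sorts. A class had to hold in at least 2 sorts, and overlap meant at least 1 bp. Paired differences were tested by exact sign flips (smallest p 0.25 with 3 pairs), with Benjamini-Hochberg adjustment over 8 measures. Pairing comes from the sort named in the labels. As a check, deviations from the factor means over 2681 genes correlated at 0.0381, 0.0291 and 0.0388 within sorts. Each library correlated best with its own sort, though all these values were small. Correlations between sorts were below 0, but deviations from the mean of the same 3 sorts sum to 0, so these give no separate check.

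Genes of 16 lists could be named, and those with a class are. Also named are, per class, the 8 with the class in most sorts and the highest mean percentile (for both, of the weaker factor), per factor the 5 with most peaks, and Sox2, Gata6, Nanog, Pou5f1 and Pdgfra. The members and lists were chosen with earlier results of these data known. An H3K27ac and an H3K4me1 library whose labels name different populations were not used. Python 3.11.15, pandas 2.3.3 and NumPy 2.4.6 were used, and the assignment and tests were checked on simulated positions. The alternatives are given with their effect under the processing heading.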

Additional observations from a re-analysis of the deposited data

How the results depend on the processing

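With the replicate block left out, that is with the 3 sorts unpaired, the exact permutation test of 3 against 3 gave p = 0.1, its smallest value, for the median distance (log10 difference 0.0919), the share over 50 kb (4.13 points), gene bodies (-7.22), and the GATA (-53.9), SOX (29.002) and OCT-SOX strings (0.944), 0.7 for the share within 1 kb (0.218) and 0.8 for genes reached (-30.3). No measure can pass 0.05 with 3 pairs or 3 against 3, so no call was gained or lost. The direction held in every alternative for these measures except the share within 1 kb. The difference in that share was -0.0504 points with the stronger 50% of peaks, 0.0702 without A, 0.0395 without A1 and 0.545 without B. It was -1.53 points without sites found in all the other factor lists, an alternative chosen after seeing the data. With 1 start per gene, its 5′ end, the log10 distance difference was 0.0532 and that in the share over 50 kb 2.72 points. The difference in genes reached ran from -7 without A to -304 with all peaks. Counts of genes depended on peak number. SOX2 only, GATA6 only and both held 692, 699 and 326 genes at the number of the shortest list, 408, 266 and 294 with the class required in all 3 sorts, and both held 456 with the stronger 50% of peaks. Leaving out 1 sort, with the class then required in both others, gave 492 to 905, 325 to 887 and 299 to 994 genes, with the lowest counts when A or A1 was left out. The same site at genes of both, 64.8% in the main analysis, ranged from 45.1% to 65.2% without 1 sort and was 45.2% with the class in all 3 sorts. Under the other alternatives the class counts stayed within 1.5 times those reported. At the shortest number, 481 of the 692 SOX2-only, 446 of the 699 GATA6-only and 326 of the 326 genes of both had that class in the main analysis.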
